A study of Mus musculus with 11 samples.

Results

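The genes examined here encode the core machinery of small RNA silencing: Drosha, Dgcr8, Xpo5, Dicer1, Tarbp2, Ago1, Ago2, Tnrc6a, Tnrc6b and Tnrc6c. They were chosen by symbol, with earlier results of these data known, and are 10 of the 54838 genes in the files. All 10 had enough reads to be among the 16073 genes tested. RNA-seq was performed on mouse E14 embryonic stem cells (ESCs), a line derived from the early embryo that was grown with LIF, 36 h after transfection of an siRNA. The cells received a scrambled control siRNA (3 libraries), CMTR1 siRNA 1 (4 libraries) or CMTR1 siRNA 2 (4 libraries), and were otherwise handled alike. CMTR1 is an enzyme that completes the 5′ cap of new mRNAs by adding a methyl group next to it, and the comparisons ask which transcripts differ when it is targeted. By the study's methods each siRNA was 1 duplex, so within a group the loss of CMTR1 and any other effect of that duplex cannot be told apart.

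In animal cells, primary microRNA transcripts are cut in the nucleus by Drosha with its partner Dgcr8, carried to the cytoplasm by the export receptor Xpo5, and cut again by Dicer1 with its partner Tarbp2. The small RNA is then held by an Argonaute protein, which pairs with target mRNAs mainly through the seed, the bases near the 5′ end of the small RNA. Argonautes recruit the GW182 proteins (Tnrc6a to Tnrc6c), which bring deadenylases and decapping factors to the mRNA. Transfected siRNAs enter this same pathway at the Argonaute step, and Ago2 is the Argonaute that cuts fully paired targets. ESCs make abundant microRNAs of the miR-290 cluster, several of which have the same or closely similar seeds.

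Each library held 6738478 to 8382318 reads counted in genes, and a member had 464 (lowest library, Tarbp2) to 4030 reads (highest library, Ago2). The 10 ESC markers summed to 1812 to 1926 CPM (reads of a gene scaled to the library's counted reads) in the control, 1467 to 1704 with siRNA 1 and 1609 to 1700 with siRNA 2, so the summed level was lower in every CMTR1 siRNA library than in every control library. Trophoblast markers summed to 31.6 to 38.1 CPM in the control, 37.0 to 41.8 CPM with siRNA 1 and 26.8 to 30.0 CPM with siRNA 2, where every library was lower than all others. Most of this sum was a single gene, Tfap2c, with 28.6 to 35.5, 34.3 to 41.0 and 25.2 to 29.0 CPM in that order. Cdx2 had at most 3.24 CPM and Elf5 at most 0.135 CPM. Fibroblast markers summed to 37.6 to 46.6, 35.8 to 49.1 and 46.1 to 50.5 CPM in the same order, and single ones went in different directions. Col1a1 was at 12.8 to 16.7 CPM with siRNA 2 against 7.89 to 9.42 CPM in the other libraries. Col3a1 was lower, at 0.247 to 0.852 CPM with siRNA 2 against 1.21 to 2.16 CPM in the control. Col1a2, Thy1 and Pdgfra with siRNA 2 overlapped with the control. Neural markers summed to 93.7 to 125 CPM, endoderm markers to 11.4 to 20.4 CPM and mesoderm markers to 7.16 to 10.7 CPM over all 11 libraries. The groups overlapped in these sums, though not in every single marker. Neural Pax6 had 9.40 to 12.3 CPM in the control, 12.4 to 16.3 CPM with siRNA 1 and 7.41 to 9.23 CPM with siRNA 2. Mesodermal T had 1.88 to 2.22 CPM in the control and 0.954 to 1.62 CPM with siRNA 2. In such bulk samples fewer cells of a type and less RNA per cell cannot be told apart, and the part of these marker levels in the results below was not tested. Cmtr1 itself had 17.9 to 21.7 CPM in the control, 16.2 to 21.3 CPM with siRNA 1 and 15.6 to 19.5 CPM with siRNA 2. Its difference from the control was −0.088 (log2, SE 0.11) with siRNA 1 and −0.25 (SE 0.11) with siRNA 2, with edgeR adjusted p of 0.74 and 0.14, and the groups overlapped. Other annotated genes share 36.3% of the exon length of Cmtr1 on the same strand and 47.2% on the opposite strand, and it had only 110 to 176 reads. The count is therefore a weak check of the label, and by the edgeR test it did not show the knockdown with either siRNA. The study's methods speak of 3 biological replicates for PCR or sequencing. That is the number of control libraries, but each CMTR1 siRNA has 4, and the labels do not say which libraries came from separate cultures. The p-values therefore measure only the spread between these libraries, which may be technical.

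Of the silencing genes, Ago1 and Tnrc6c differed between groups, and the other 8 passed the test in no comparison. With siRNA 1, Ago1 fell by 25.9% and Tnrc6c rose. With siRNA 2, no member passed the test. A gene was called at a Benjamini-Hochberg adjusted p of at most 0.05 over all 16073 genes in edgeR's quasi-likelihood test. With siRNA 1, 2 of the 10 members were called, beside 4.67% of all genes (2.71% called higher and 1.97% called lower). With siRNA 2, 0 of 10 were called beside 9.72% of all genes (6.17% higher and 3.55% lower). In that comparison 1 member, Tnrc6a, had an unadjusted p under 0.05, and DESeq2 and edgeR's exactTest also called 0. Between the 2 CMTR1 siRNAs, 2 members were called beside 7.44% of all genes (4.49% higher with siRNA 2 and 2.96% lower). The 2 siRNAs were compared with the same control libraries.

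The balance of higher and lower calls over all genes depended on how the libraries were scaled, while the members' calls did not. Of the genes called with siRNA 1, 57.9% were higher after scaling by total counts, 46.4% with TMM factors and 38.2% with DESeq2. DESeq2 differs in its test as well as its size factors, so only the TMM setting changes the scaling alone. For siRNA 2 these shares were 63.4%, 49.8% and 42.7%. The median log2 difference over all genes was 0.024 with siRNA 1 and 0.029 with siRNA 2, and the median over the members was 0.0010 and −0.033.

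**Figure D1:**
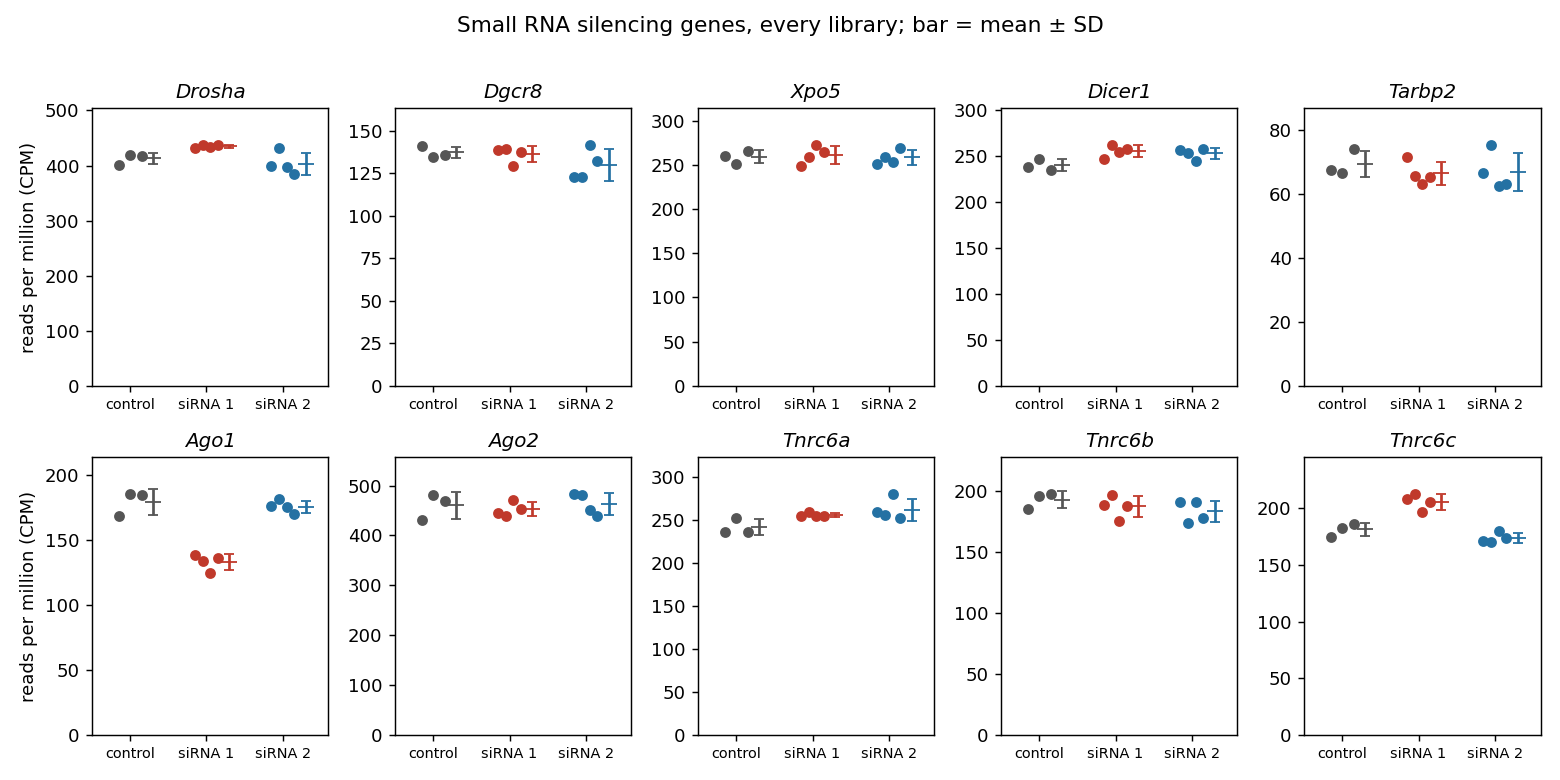
CPM (y axis, from 0) of each of the 10 silencing genes in every library, with control siRNA in grey (3 libraries), CMTR1 siRNA 1 in red (4) and CMTR1 siRNA 2 in blue (4); the bar beside the points is the mean with its SD. The 4 siRNA 1 libraries of Ago1 lie at 124 to 138 CPM, below all other libraries, and those of Tnrc6c at 196 to 213 CPM, above all others.

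The 2 nuclear processing genes were not called in any comparison. Drosha (chr15:12824815-12935291, plus strand, GRCm38), the ribonuclease that makes the first cut, had 401, 419.7 and 418 CPM in the control, 432, 438, 433 and 437 CPM with siRNA 1, and 398, 431, 398 and 384 CPM with siRNA 2. All siRNA 1 libraries lay above all the others, with a coefficient of variation of 0.665%. The log2 difference was 0.076 (SE 0.043, adjusted p = 0.39) with siRNA 1 and −0.035 (SE 0.043, adjusted p = 0.68) with siRNA 2, by edgeR. The value with siRNA 2 was 0.11 lower on the log2 scale than with siRNA 1 (−0.11, interval −0.19 to −0.030), with an edgeR adjusted p of 0.083. Without siRNA 2 replicate 2, the highest library of its group, this difference was −0.15 and passed the test (edgeR adjusted p = 0.022).

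Dgcr8 (chr16:18253948-18289246, minus strand), the RNA-binding partner of Drosha, had 141, 135 and 136 CPM in the control, 139, 139, 129 and 138 CPM with siRNA 1, and 123, 123, 142 and 132 CPM with siRNA 2. Neither siRNA group was apart from the control. Its log2 difference was −0.010 with siRNA 1 (interval −0.12 to 0.097) and −0.080 with siRNA 2 (interval −0.19 to 0.028). Other genes overlap 6.4% of its exon length on the same strand, among them Mir1306, which lies inside it and was counted at 0 reads in every library, and the opposite-strand Trmt2a overlaps 10.7%.

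Xpo5 (chr17:46202782-46243598, plus strand), which exports the hairpin precursors, was the least different of the members with siRNA 2. It had 259.9, 251 and 266 CPM in the control, 249, 259, 273 and 265 CPM with siRNA 1, and 251, 259, 253 and 269.6 CPM with siRNA 2. Its log2 difference of −0.0035 with siRNA 2 had a 95% interval of −0.095 to 0.088.

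Dicer1 (chr12:104687742-104751952, minus strand), which cuts the precursor hairpin, had slightly higher means with both CMTR1 siRNAs. Its libraries had 238, 247 and 235 CPM in the control, 247, 262, 254 and 257 CPM with siRNA 1, and 257, 253, 244 and 258 CPM with siRNA 2. The log2 differences of 0.089 (SE 0.045, adjusted p = 0.30) and 0.076 (SE 0.045, adjusted p = 0.31) did not pass the edgeR test, and control replicate 2 lay within both siRNA groups. Tarbp2 (chr15:102518192-102523676, plus strand), the double-stranded RNA-binding partner of Dicer1, was the member with the fewest reads and the widest intervals. It had 67.4, 66.4 and 73.9 CPM in the control, 71.5, 65.7, 63.0 and 65.4 CPM with siRNA 1, and 66.6, 75.4, 62.6 and 63.0 CPM with siRNA 2. Its log2 difference was −0.061 (interval −0.19 to 0.073) with siRNA 1 and −0.046 (interval −0.18 to 0.087) with siRNA 2.

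Ago1 (chr4:126435012-126468583, minus strand), an Argonaute that binds small RNAs and represses their targets, fell with siRNA 1 and not with siRNA 2. It had 168, 186 and 185 CPM in the control (179.5 ± 9.89, SD, n = 3). With siRNA 1 it had 138, 134, 124 and 136 CPM (133 ± 6.10, SD, n = 4). With siRNA 2 it had 176, 181, 175 and 169.8 CPM (176 ± 4.74, SD, n = 4). The siRNA 1 libraries were lower than all others, and the siRNA 2 libraries lay within the range of the control. The log2 difference with siRNA 1 was −0.43 (SE 0.051, 95% interval −0.54 to −0.33, edgeR adjusted p = 3.17e-07), the 3rd lowest p of the 16073 genes. With siRNA 2 it was −0.031 (SE 0.050, interval −0.13 to 0.069, edgeR adjusted p = 0.77). The level with siRNA 2 was higher than with siRNA 1 by 0.40 on the log2 scale (SE 0.047, edgeR adjusted p = 1.07e-07), which is the test of the difference between the siRNAs. Exact two-sided permutation of the libraries gave p = 0.0571 with siRNA 1 against control and p = 0.0286 between the siRNAs, each the smallest that these group sizes allow. No annotated gene overlaps the exons of Ago1. Its call with siRNA 1 held in all 19 alternatives, in which the log2 difference ran from −0.48 to −0.40.

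Ago2 (chr15:73095844-73184935, minus strand), the Argonaute with slicing activity, had overlapping values in the 3 groups. It had 430.3, 481 and 469.6 CPM in the control, 445, 438, 471 and 454 CPM with siRNA 1, and 484, 481, 450.4 and 439.6 CPM with siRNA 2. The log2 differences were −0.026 (interval −0.12 to 0.067) and 0.010 (interval −0.082 to 0.10), so a change of the size seen for Ago1 lies outside both intervals.

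As CPM per kilobase of exon, Ago2 gave 54.5% ± 0.385 (SD, n = 3) of the summed level of Ago1 to Ago4 in the control, Ago1 36.7% ± 0.262, Ago3 8.53% ± 0.454 and Ago4 0.208% ± 0.0818. With siRNA 1 the share of Ago1 was 28.4% to 31.5%, against 36.5% to 37.0% in the control and 35.4% to 36.4% with siRNA 2. The share of Ago2 was 58.8% to 62.3% with siRNA 1, against 54.1% to 54.9% in the control and 54.1% to 56.2% with siRNA 2. The summed Argonaute level was 60.2 ± 3.09 CPM per kb in the control, 53.8 ± 0.626 with siRNA 1 and 60.0 ± 1.91 with siRNA 2.

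**Figure D2:**
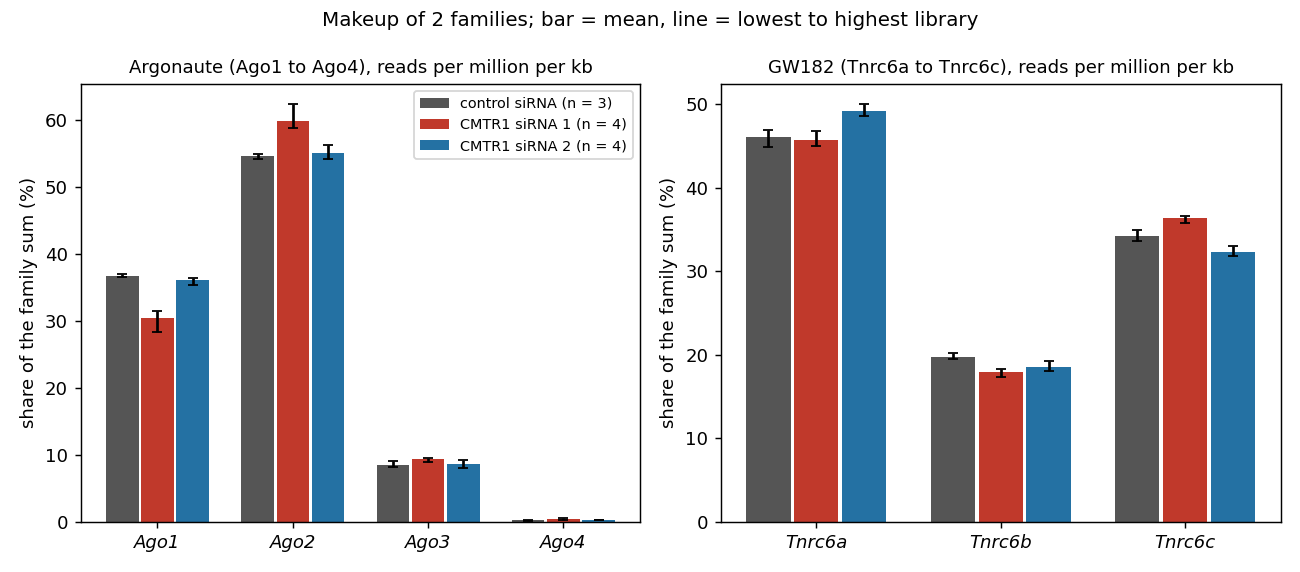
Share (%, y axis from 0) of each gene in the summed CPM per kb of its family, for the Argonautes (left) and the GW182 genes (right), in control siRNA (grey), CMTR1 siRNA 1 (red) and CMTR1 siRNA 2 (blue) libraries; bars are means and lines run from the lowest to the highest library. The Ago1 share is 30.4% with siRNA 1 against 36.7% in the control, and the Tnrc6a share is 49.2% with siRNA 2 against 46.0% in the control.

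The GW182 genes differed from each other. Tnrc6c (chr11:117654289-117763439, plus strand) rose with siRNA 1. It had 175, 183 and 186 CPM in the control (181 ± 5.86, SD, n = 3), 208, 213, 196 and 205 CPM with siRNA 1 (206 ± 6.93, SD, n = 4), and 171, 170.4, 180.4 and 173 CPM with siRNA 2 (174 ± 4.61, SD, n = 4). The siRNA 1 libraries were above all others, while control and siRNA 2 overlapped. The log2 difference was 0.18 (SE 0.047, interval 0.087 to 0.28, edgeR adjusted p = 0.015) with siRNA 1 and −0.061 (SE 0.048, edgeR adjusted p = 0.46) with siRNA 2. The level with siRNA 2 was below that with siRNA 1 by a log2 difference of −0.24 (SE 0.044, edgeR adjusted p = 0.00019). The call with siRNA 1 was lost without control replicate 1 (0.16, adjusted p = 0.10), without control replicate 2 (0.19, adjusted p = 0.061) and without siRNA 1 replicate 2 (0.16, adjusted p = 0.082), and the call between the siRNAs held in all 19 alternatives.

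Tnrc6a (chr7:123123885-123195296, plus strand) had 236, 252 and 236 CPM in the control, 255, 259.6, 254 and 254 CPM with siRNA 1, and 259, 256, 281 and 252 CPM with siRNA 2. All siRNA 1 libraries were above the control, and the lowest siRNA 2 library lay just under control replicate 2. The log2 difference was 0.084 (SE 0.046, adjusted p = 0.36) with siRNA 1 and 0.12 (SE 0.046, adjusted p = 0.11) with siRNA 2 in edgeR. Tnrc6b (chr15:80711313-80941085, plus strand) had 185, 196 and 198 CPM in the control, 188, 197, 175 and 188 CPM with siRNA 1, and 190.5, 174, 191 and 178 CPM with siRNA 2. Its groups overlapped, with log2 differences of −0.042 (interval −0.14 to 0.058) and −0.074 (interval −0.17 to 0.026). In the summed level of the 3 GW182 genes per kilobase, Tnrc6c had 33.6% to 35.0% in the control, 35.8% to 36.6% with siRNA 1 and 31.8% to 33.0% with siRNA 2, with no overlap between the 3 groups. The share of Tnrc6a was 48.6% to 49.99% with siRNA 2, against 44.8% to 46.9% in the control and 45.1% to 46.9% with siRNA 1.

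**Figure D3:**
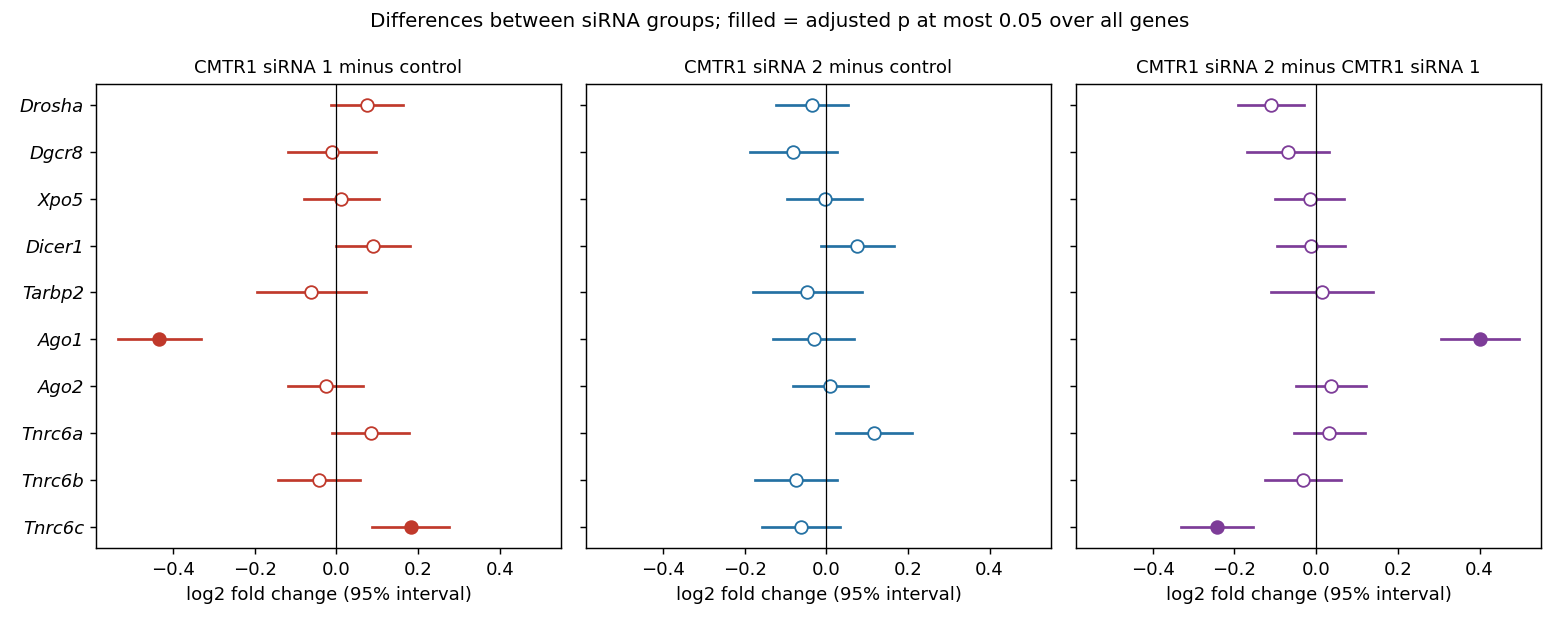
Log2 fold change (x axis) with its 95% interval for each of the 10 silencing genes in 3 comparisons: CMTR1 siRNA 1 minus control (red), CMTR1 siRNA 2 minus control (blue) and CMTR1 siRNA 2 minus CMTR1 siRNA 1 (purple); filled points have an adjusted p of at most 0.05 over all genes. Ago1 stands at −0.43, −0.031 and 0.40, Tnrc6c at 0.18, −0.061 and −0.24, and no other point is filled.

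Groups whose libraries did not overlap were counted as well. With siRNA 1, 4 of the 10 members (Ago1 lower, and Drosha, Tnrc6a and Tnrc6c higher) had libraries apart from the control, beside 15.5% of all genes tested. With siRNA 2, this was so for 0 of 10, beside 19.4% of all genes. Between the siRNAs, 3 of 10 members (Ago1, Drosha and Tnrc6c) were apart, beside 11.8% of all genes. Of the members that were not called, the 95% intervals ran at most from −0.19 to 0.18 with siRNA 1, from −0.19 to 0.21 with siRNA 2 and from −0.19 to 0.14 between the siRNAs, so larger log2 differences lie outside them.

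Per kilobase of exon, Drosha was the highest member in the control with 69.6 ± 1.72 CPM per kb (SD, n = 3). Xpo5 had 37.8 ± 1.08, Ago2 32.8 ± 1.90, Ago1 22.1 ± 1.22, Tnrc6a 19.0 ± 0.747 and Dgcr8 17.8 ± 0.446 CPM per kb. Tarbp2 followed with 15.2 ± 0.896, Dicer1 with 14.3 ± 0.380, Tnrc6c with 14.1 ± 0.457 and Tnrc6b with 8.14 ± 0.292 CPM per kb. Neighbours in this order had separate control libraries, except that Tarbp2 overlapped with Dicer1 and Dicer1 with Tnrc6c. With siRNA 1, Ago1 moved from 4th to 6th, at 16.4 ± 0.751 CPM per kb, below Tnrc6a and Dgcr8, and with siRNA 2 it kept the 4th place. Among 13222 tested protein-coding genes, Drosha stood at the 96.5th percentile of this scale and Tnrc6b at the 59.5th. Exon length was summed over all annotated transcripts, so a gene whose long 3′ ends are little used is placed too low.

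Over the 11 libraries, the log2 CPM of the 45 pairs of members had Pearson correlations from −0.82 (Ago1 with Tnrc6c) to 0.74 (Drosha with Tnrc6c), with a median of −0.011. The points share their libraries and the 3 groups, so these values describe the pattern across groups and carry no test. The tested genes most like Ago1 across the libraries were Brwd3 (r = 0.944), Arl4d (r = 0.934) and Slc47a1 (r = 0.932). Those most like Tnrc6a, the member of lowest p with siRNA 2, were Gm12100 (r = 0.936), H1f0 (r = 0.919) and Tuft1 (r = 0.919).

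An siRNA can also pair with other mRNAs through its seed, so the 3′ untranslated region (3′ UTR) of the longest coding transcript of each gene was searched for the 7 letters complementary to guide bases 2 to 8, on the transcript strand. The letters were ATGAATT for CMTR1 siRNA 1, AAGATGA for CMTR1 siRNA 2 and TTGCTCA for the control siRNA; the first can follow the second by sharing ATGA, which none of the sites below does. Of the members, Ago1 and Ago2 each had 2 matches to siRNA 1, Tnrc6b had 1, Tnrc6c had 2 matches to siRNA 2, and no member had a match to the control siRNA. The 3′ UTR of Cmtr1, which is not a member, had 2 matches to the control siRNA and 0 to either CMTR1 siRNA. Over its whole transcript Cmtr1 had 1 match to each CMTR1 siRNA, outside the 3′ UTR. The part of the control siRNA matches in the count of Cmtr1 was not tested. The sites of Ago1 and Ago2 are shown because both genes hold the same letters and only Ago1 was called, and those of Tnrc6c because it was called between the siRNAs. Capitals mark the match.
Ago1, chr4:126436424-126436430, minus strand, siRNA 1: tgtgtgataATGAATTctctgcat
Ago1, chr4:126435354-126435360, minus strand, siRNA 1: taaggaaaaATGAATTgactttct
Ago2, chr15:73103166-73103172, minus strand, siRNA 1: tttttctggATGAATTgcttttcc
Ago2, chr15:73097201-73097207, minus strand, siRNA 1: tgaagtcttATGAATTtgatttta
Tnrc6c, chr11:117760953-117760959, plus strand, siRNA 2: tccagtctgAAGATGAaccttggc
Tnrc6c, chr11:117762752-117762758, plus strand, siRNA 2: tatgttttaAAGATGAtcaatgtt

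Such matches were common. Of 13101 tested genes with a 3′ UTR, 13.7% held the letters of siRNA 1, 14.95% those of siRNA 2 and 12.1% those of the control siRNA. The 3′ UTR of Ago1 is 4491 bases long, and 36.9% of the 967 genes with a 3′ UTR within 20% of that length held the siRNA 1 letters. The median log2 difference with siRNA 1 was 0.0023 over the genes with the siRNA 1 letters and 0.026 over those without. With siRNA 2 it was 0.024 over the genes with the siRNA 2 letters and 0.034 over those without. Under the other CMTR1 siRNA, the siRNA 1 letters went with a median of 0.054, against 0.028 without them. The siRNA 2 letters went with 0.027 under siRNA 1, against 0.022 without them. For the letters of the control siRNA, searched in the same way, the median with siRNA 1 was 0.048 with them and 0.019 without. With siRNA 2 it was 0.066 with them and 0.027 without. The control libraries are the reference in both comparisons, so these gaps are no baseline for the letters of the CMTR1 siRNAs. Tnrc6b, with 1 match, was not called with siRNA 1, and Tnrc6c, with 2 matches to siRNA 2, was at −0.061 with siRNA 2 and not called. The part of these matches in the levels of Ago1 and Tnrc6c was not tested.

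Further genes of the pathway were taken from 8 lists of cofactors, effectors, microRNA host transcripts and reported microRNA targets. Of 109 such genes, 96 were tested. With siRNA 1, 8 of them were called (3 higher and 5 lower; 8.33%), with siRNA 2, 18 (11 higher and 7 lower; 18.8%), and between the siRNAs, 15 (12 higher with siRNA 2 and 3 lower; 15.6%), beside 4.67%, 9.72% and 7.44% of all genes. Their median log2 difference was 0.013 with siRNA 1 and 0.0061 with siRNA 2. With TMM factors the calls were 3 higher and 9 lower with siRNA 1 and 7 higher and 8 lower with siRNA 2. The lists were chosen with earlier results of these data known, and some entries are neighbouring hairpins of 1 microRNA cluster. The shares are therefore a description and carry no test.

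Among the other Argonaute and PIWI genes, 0 of 5 were called with siRNA 1 in edgeR (1 at an unadjusted p under 0.05; 0 in DESeq2 and exactTest) and 2 of 5 with siRNA 2, both higher. Piwil2, a PIWI protein known from the germline, had 35.7 to 37.4 CPM in the control, 40.4 to 42.8 CPM with siRNA 1 and 52.3 to 65.3 CPM with siRNA 2, and rose with siRNA 2 by 0.72 on the log2 scale (SE 0.073, edgeR adjusted p = 3.14e-09). Piwil4 had 8.61 to 10.9 CPM in the control, 8.35 to 10.7 CPM with siRNA 1 and 12.7 to 16.0 CPM with siRNA 2, a rise of 0.52 (SE 0.13, edgeR adjusted p = 0.0055). Both were also higher with siRNA 2 than with siRNA 1, by 0.53 and 0.58 (edgeR adjusted p = 3.33e-07 and 0.0011). Ago3 had 79.0 to 91.1 CPM over all libraries and was not called in any comparison.

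Of 17 loading, turnover and effector cofactors, 2 were called with siRNA 1 and 5 with siRNA 2. Mov10, an RNA helicase that associates with Argonautes, fell with both siRNAs, from 71.2 to 88.9 CPM in the control to 62.7 to 71.4 CPM with siRNA 1 (log2 −0.30, SE 0.072, edgeR adjusted p = 0.0080) and 52.6 to 68.2 CPM with siRNA 2 (−0.42, SE 0.072, edgeR adjusted p = 7.64e-05). Zswim8, a ubiquitin ligase adaptor in target-directed microRNA decay, rose by 0.22 and 0.21, but both calls were lost with DESeq2 and the call with siRNA 2 also with TMM factors. Fmr1, Tsnax and Rack1 were called with siRNA 2 and not with siRNA 1 (0.25, 0.24 and −0.12), and of these Fmr1 also differed between the siRNAs (0.17, edgeR adjusted p = 0.032, a call lost with DESeq2). The call of Tsnax was lost with DESeq2, and that of Rack1 held in 3 of 11 fits with a library left out. Eri1, an exonuclease, was higher with siRNA 2 than with siRNA 1 (0.23, edgeR adjusted p = 0.0067). Hsp90ab1 and Hsp90aa1, chaperones of Argonaute loading, had log2 differences of −0.11 and −0.093 with siRNA 1 and were not called.

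Of 15 biogenesis cofactors, 0 were called with siRNA 1 by edgeR (1 at an unadjusted p under 0.05; 1 in DESeq2 and 0 in exactTest). With siRNA 2, 1 was called, the helicase Ddx5 (0.14, a call lost with TMM factors and with DESeq2). The helicase Dhx9 was higher with siRNA 2 than with siRNA 1 (0.14, edgeR adjusted p = 0.036, a call lost with DESeq2). Of the 21 deadenylation and repression genes that GW182 proteins act through, Dcp2, the decapping enzyme, fell with siRNA 1 (−0.16, SE 0.048, edgeR adjusted p = 0.034), a call that held in 5 of 11 fits with a library left out. With siRNA 2, Cnot6l and Dcp1a rose (0.28 and 0.20) and Pabpc1 and Ddx6 fell (−0.15 and −0.15). The call of Dcp1a was lost with TMM factors and with DESeq2, and that of Cnot6l with DESeq2 and the replicate block. That of Ddx6 held in 6 of 11 fits with a library left out. With siRNA 1, Pabpc1 was at −0.12 and Dcp1a at 0.077 (edgeR adjusted p = 0.082 and 0.55), and neither was called between the siRNAs. Of the 6 let-7 maturation and decay genes, 1 was called with siRNA 2, Tut4 (0.16, a call lost with TMM factors and with DESeq2). Tut4 was also at 0.16 with siRNA 1 (edgeR adjusted p = 0.051), and was not called between the siRNAs (−0.0049). In this list edgeR called 0 with siRNA 1 (1 at an unadjusted p under 0.05, 0 called in DESeq2 and 1 in exactTest). Lin28a, which blocks let-7 maturation, was called between the siRNAs (0.15, edgeR adjusted p = 0.023).

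**Figure D4:**
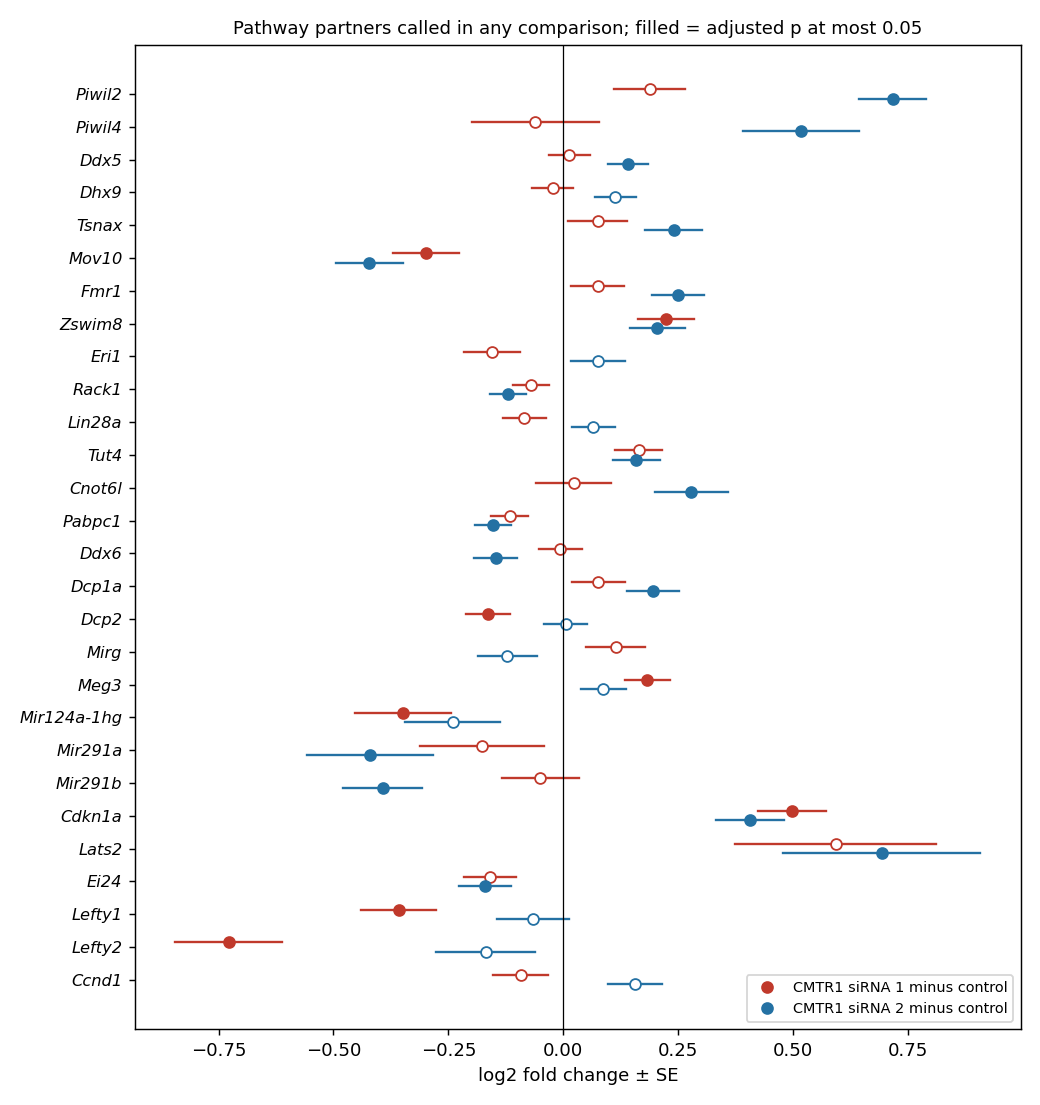
Log2 fold change with its SE (x axis) for the 28 pathway partners called in at least 1 of the 3 comparisons, for CMTR1 siRNA 1 minus control (red) and CMTR1 siRNA 2 minus control (blue); filled points have an adjusted p of at most 0.05 over all genes. Piwil2 reaches 0.72 with siRNA 2, Mov10 lies below 0 with both siRNAs, and Cdkn1a lies above 0 with both.

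Reads on microRNA hairpins in these rRNA-depleted libraries come from precursor transcripts, not from mature microRNAs. Of 13 host transcripts tested, 2 were called with siRNA 1, 2 with siRNA 2 and 2 between the siRNAs. Several of the 13 are neighbouring hairpins of the miR-290 cluster, among them both called with siRNA 2. These are therefore not counts of independent transcripts. With siRNA 1, Meg3 rose (0.18, edgeR adjusted p = 0.019) and Mir124a-1hg fell (−0.35, edgeR adjusted p = 0.043), and both calls were lost with DESeq2. With siRNA 2 they were at 0.087 and −0.24 and were not called, and neither was called between the siRNAs. Mirg, which like Meg3 lies in the imprinted Dlk1-Dio3 region, was lower with siRNA 2 than with siRNA 1 (−0.24, edgeR adjusted p = 0.0088, also lost with DESeq2). Mir291a and Mir291b, hairpins of the miR-290 cluster on chromosome 7, fell with siRNA 2. Other tested hairpins of the cluster were not called with it: Mir290a (−0.41, edgeR adjusted p = 0.085), Mir293 (−0.25), Mir294 (−0.16) and Mir295 (−0.038). Mir292 was not in the list, and had 9.37 to 11.2 CPM in the control and 6.96 to 9.88 CPM with siRNA 2. Mir291b had 30.8 to 39.9 CPM in the control, 31.4 to 38.4 CPM with siRNA 1 and 26.5 to 28.2 CPM with siRNA 2 (log2 −0.39, SE 0.086, edgeR adjusted p = 0.0019). Mir291a had 67 to 124 reads per library and a log2 difference of −0.42 (SE 0.14, edgeR adjusted p = 0.043) with siRNA 2. That call was lost with DESeq2 and the replicate block and held in 5 of 11 fits with a library left out. With siRNA 1, Mir291a was at −0.18 and not called, and it was not called between the siRNAs. Mir291b was also lower with siRNA 2 than with siRNA 1 (−0.34, edgeR adjusted p = 0.0053), and both its calls held in every alternative. The mature 3′ arms that the RefSeq table (GRCm38.p6) holds for the cluster are shown because the seeds, in capitals, group the hairpins: miR-291a-3p, miR-294-3p and miR-295-3p share 1 seed, while miR-290a-3p, miR-291b-3p and miR-293-3p each have a seed of their own.
miR-291a-3p: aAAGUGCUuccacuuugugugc
miR-294-3p: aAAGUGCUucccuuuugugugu
miR-295-3p: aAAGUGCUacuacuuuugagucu
miR-290a-3p: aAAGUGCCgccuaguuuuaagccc
miR-291b-3p: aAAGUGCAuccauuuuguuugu
miR-293-3p: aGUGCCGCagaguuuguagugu

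Of 10 reported targets of miR-290 and miR-302 family microRNAs, 3 were called with each siRNA, in both directions. Cdkn1a, a cyclin-dependent kinase inhibitor, rose from 38.9 to 42.5 CPM in the control to 52.7 to 61.4 CPM with siRNA 1 (log2 0.50, SE 0.074, edgeR adjusted p = 1.59e-05) and 48.3 to 60.6 CPM with siRNA 2 (0.41, SE 0.074, edgeR adjusted p = 0.00019). Lefty2 and Lefty1, Nodal antagonists, fell with siRNA 1 (−0.73 and −0.36), as Ei24 did with siRNA 2 (−0.17), and Lats2 rose with siRNA 2 (0.69, at 17 to 39 reads per library). With siRNA 1, Ei24 was at −0.16 and Lats2 at 0.59 (edgeR adjusted p = 0.10 and 0.12). Neither was called between the siRNAs. The calls of Lefty1 and Lats2 were lost with DESeq2, and that of Ei24 with the replicate block, and it held in 3 of 11 fits with a library left out. Of 12 reported let-7 targets tested, edgeR called 0 with either siRNA against control (4 at an unadjusted p under 0.05 with each; 1 in DESeq2 with each, and 1 with siRNA 1 and 0 with siRNA 2 in exactTest). Between the siRNAs it called 2, Ccnd1 (0.25) and Lin28a.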

How the data were processed

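RNA-seq libraries were made from rRNA-depleted total RNA with a strand-specific kit. The authors trimmed reads with Cutadapt, aligned them to GRCm38 (mm10) with STAR, removed duplicates with Picard and, by the study's methods, counted them per gene with featureCounts, although most files end with summary lines in the layout of HTSeq-count; tool versions, the annotation release and the strand setting are not given in the sources used here. The deposited values are raw counts, 1 file per library, for 54838 Ensembl genes, of which 54809 were matched to symbols in a GRCm38 annotation (GENCODE). Summary lines that name no gene were set aside.

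Counts were scaled by library totals (CPM), after the study's methods, which name exactTest in edgeR. Genes over 1 CPM in at least 4 libraries were fitted with edgeR 4.0.16 (R 4.3.3), glmQLFit and glmQLFTest, over all 11 libraries, with Benjamini-Hochberg adjustment and a threshold of 0.05. The script was tested on simulated data. Single genes were also compared by two-sided exact permutation. Named were all members, Cmtr1, the partners called in any comparison and a few of the most abundant others. The members, lists and tests were chosen with earlier results of these data known. Alternatives were TMM factors, DESeq2 1.42.0, exactTest, 2 other filters, pairwise fits, a replicate block, library sizes without the abundant RNA Gm26917, and each library left out. Intervals cover 95%. The siRNA seed letters come from the study's methods; the whole duplexes are in none of the deposited or reference files and are not printed.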

Additional observations from a re-analysis of the deposited data

Results flagged for a closer look

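The response of Ago1 differed between the 2 CMTR1 siRNAs by the test of the difference itself: the level with siRNA 2 was higher than with siRNA 1 by 0.40 (log2, edgeR adjusted p = 1.07e-07), with all 4 siRNA 2 libraries above all 4 siRNA 1 libraries. Tnrc6c differed in the opposite direction, by −0.24 (log2, edgeR adjusted p = 0.00019), again with no overlap of libraries.

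Among the libraries of a group, 2 values stood apart from the others by Dixon's criterion, which chance meets in about 1 of 20 groups. Dgcr8 was low in siRNA 1 replicate 3 (129 CPM, against 138 to 139 CPM in the other 3 libraries), and Tnrc6a was high in siRNA 1 replicate 2 (259.6 CPM, against 254 to 255 CPM in the other 3).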

How the results depend on the processing

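The calls of Ago1 with siRNA 1 and of Ago1 and Tnrc6c between the siRNAs held in all 19 alternatives, and the call of Tnrc6c with siRNA 1 in 16. Members called with siRNA 1 numbered 2 in every setting but those with 1 library left out, where they ran from 1 to 2. With siRNA 2 they numbered 0 in all, and between the siRNAs 2, or 2 to 3 with a library left out. Partner calls were less steady. With a library left out they ran from 3 to 12 with siRNA 1, from 8 to 18 with siRNA 2 and from 6 to 19 between the siRNAs. DESeq2 gave 9 partner calls between the siRNAs, and the fit of only the 2 groups gave 13 with siRNA 1. Of 41 partner calls, 12 held in every alternative and none changed sign. The cause of these shifts was not tested. DESeq2 called 958 genes with siRNA 2 and 740 between the siRNAs, against 1562 and 1196.

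Small uncalled differences changed sign. Xpo5 with siRNA 1 was −0.0076 with TMM factors, −0.011 with DESeq2 and −0.0017 with the replicate block, and Ago2 with siRNA 2 was −0.014 with TMM factors and −0.018 with DESeq2. With 1 library left out, log2 differences with siRNA 1 ran from −0.072 to 0.0076 for Ago2, from −0.024 to 0.015 for Dgcr8 and from −0.0093 to 0.035 for Xpo5. With siRNA 2 they ran from −0.036 to 0.043 for Ago2, from −0.11 to 0.0021 for Tarbp2 and from −0.025 to 0.016 for Xpo5. Between the siRNAs they ran from −0.029 to 0.0032 for Dicer1, from −0.051 to 0.050 for Tarbp2, from −0.0021 to 0.050 for Tnrc6a and from −0.038 to 0.0059 for Xpo5.

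Samples with the same replicate number did not deviate together (mean r = 0.0079 over 10 pairs, against −0.0026 over 30 pairs of unlike numbers), so no sign of pairing by number was seen. The labels do not say what the numbers mark, and a weak shared effect could be missed. With the replicate block, members called numbered 2, 0 and 2, and partners 9, 12 and 14, in the order siRNA 1, siRNA 2 and siRNA 2 against siRNA 1.

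At 464 to 4030 reads per member and 3 or 4 libraries a group, the intervals of uncalled members reach about 0.2 (log2), so uncalled differences below that size are not shown to be absent. Cmtr1, with 110 to 176 reads, had wider ones.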
